A study of Mus musculus with 10 samples.

Results

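The genes described here are the 5 members of a group of interferon effectors that act on tryptophan and nitric oxide: Ido1, Wars, Kynu, Gch1, and Nos2. They were chosen by name, and each name was found once in the gene table of each of the 10 libraries, so that all 5 members were measured among 25814 genes. For every member, the tables give the number of reads on its exons and the RPKM, which are these reads scaled to exon length and to the mapped reads of the library.

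IFN-γ, which is released by activated T cells, is known to act on skin cells through its receptor and IRF and STAT factors. IDO1 opens the tryptophan ring and starts the kynurenine pathway, kynureninase (Kynu) acts further down in it, and WARS, the tryptophanyl-tRNA synthetase, loads tRNA with the same amino acid. GTP cyclohydrolase 1 (Gch1) begins the synthesis of tetrahydrobiopterin, a cofactor without which the inducible nitric oxide synthase (Nos2) does not form nitric oxide from arginine. All 5 are known as genes that can respond to interferons or other inflammatory signals, and Ido1 and Nos2 are best known from macrophages and dendritic cells.

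The libraries fell into 5 groups of 2, made from primary cells of adult C57/B6 mice. Keratinocytes from tail skin were cultured either alone or with splenic CD8+ T cells and were lysed after the T cells had been washed off. The methods of the study also name newborn mice as a source of keratinocytes, without saying which were sequenced. The T cells had been selected with CD8 microbeads and stimulated by αCD3/CD28 for 1 d, and were taken either at this point, after 1 d more in keratinocyte medium, or after 1 d more with keratinocytes. The labels of the T cells give 1 d for the co-culture, whereas the deposited design text gives 1 h. According to the methods of the study, co-cultures held a mix of keratinocyte and T-cell medium. Stimulus, time and medium thus all differ between the activated T cells and both other T-cell groups. The methods name no such mix for keratinocytes alone, so that T cells and medium cannot be told apart between both keratinocyte groups. Replicates 1 and 2 are the numbers of the labels for keratinocytes and activated T cells. The labels give no number for the other T-cell libraries, which are called a and b here. The deposited text speaks of parallel experiments but of no separate animals, so that p-values measure only the spread between these libraries.

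The libraries held 12864931 to 18019609 exon reads. At this depth, 3 reads, taken here as the lowest count told apart from 0, correspond to 0.158 to 0.212 RPKM for 1 kb of exons. This limit covers counting error only. The 12 keratinocyte markers summed to between 20505 and 24288 RPKM in the 4 keratinocyte libraries, and all 12 had reads there. They summed to 144 RPKM in library a and 73.4 RPKM in library b of the co-cultured T cells, and to between 7.87 and 23.3 RPKM in the other T-cell libraries. The T-cell markers were not confined to T-cell libraries: they summed to 117 RPKM in replicate 1 and 457 RPKM in replicate 2 of keratinocytes alone, and to 150 and 814 RPKM in the co-cultured ones. Of these markers, Cd8a lay at or under 1.16 RPKM and Cd8b1 at or under 2.00 RPKM in all 4 keratinocyte libraries, against at least 110 RPKM in every T-cell library. Cd4 was found in the T-cell libraries as well, at 16.8 to 102 RPKM. Trac and the γδ T-cell receptor genes Trdc, Trdv4, Tcrg-C1, Tcrg-C2, and Tcrg-V5 are listed at 0 in every library. As Trac was at 0 even in the CD8+ T-cell libraries, a 0 for these receptor genes is not read as absence of such cells.

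**Figure D1:**
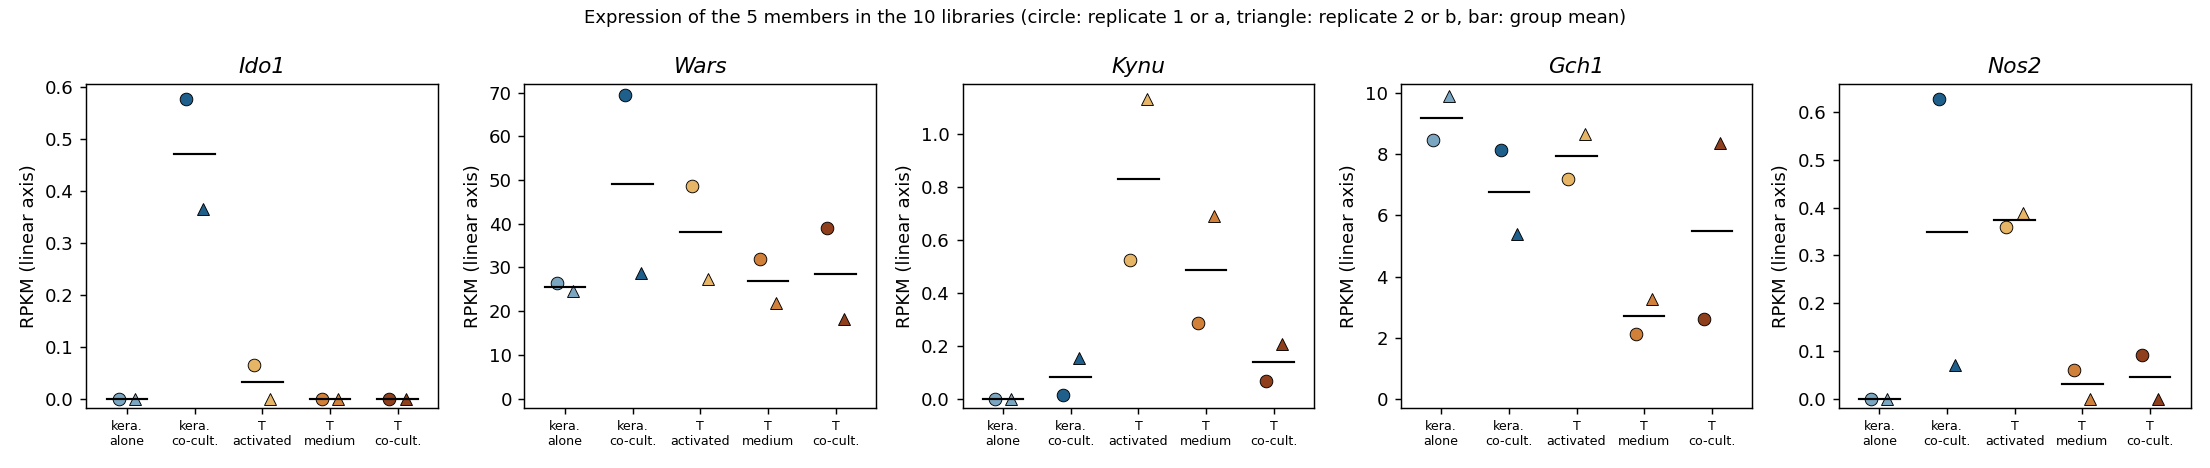
RPKM of the 5 members (1 panel each, linear axes) in the 10 libraries, with the groups on the x axis, 1 point for each library and a bar at each group mean. Ido1 had more than 2 reads in the co-cultured keratinocytes only, Kynu was highest in activated T cells, and Wars and Gch1 were found in every library.

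Ido1 was all but silent in these cultures and had reads in both libraries of co-cultured keratinocytes. The gene (ENSMUSG00000031551) lies on the minus strand of chromosome 8 at 24584136 to 24597009 in GRCm38 and has 11 exons. In keratinocytes alone, 0 reads were found in both replicates, and in co-cultured keratinocytes 16 reads in replicate 1 and 11 reads in replicate 2, equal to 0.577 and 0.365 RPKM. Of these reads 6 and 2 spanned an exon-exon junction, and all were uniquely mapped. Both co-cultured libraries were thus above both others. Measured against the limit of 3 reads per library, the mean of the co-cultured keratinocytes, 0.471 ± 0.149 RPKM (SD, n = 2), was at least 5.14-fold higher than that of keratinocytes alone. Among T cells, 2 reads were counted in replicate 1 of the activated cells and 0 in all 5 other libraries, in which 3 reads correspond to 0.0953 to 0.116 RPKM. Even in co-cultured keratinocytes Ido1 remained far below Irf1, an interferon-inducible factor known to act on it, which stood at 58.3 and 62.3 RPKM.

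Kynu showed the opposite distribution and was found mainly in T cells. It lies on the plus strand of chromosome 2 at 43555329 to 43682715 and has 18 exons (ENSMUSG00000026866). Activated T cells held 42 and 78 reads in replicates 1 and 2, equal to 0.523 and 1.13 RPKM. T cells in keratinocyte medium held 21 and 57 reads in a and b, or 0.285 and 0.692 RPKM, and co-cultured T cells 5 and 14 reads, or 0.0688 and 0.207 RPKM. The co-cultured T cells thus lay below all 4 other T-cell libraries. Keratinocytes alone held 0 reads in both replicates, and co-cultured keratinocytes 1 read in replicate 1, which was not uniquely mapped, and 12 in replicate 2. None of these 13 reads spanned a junction, whereas 27, 16 and 4 reads did so in activated T cells, T cells in keratinocyte medium and co-cultured T cells. The replicate with the 12 reads was also that with the larger sum of T-cell markers, 814 RPKM against 150 RPKM in replicate 1. In replicate 2 of keratinocytes alone these markers summed to 457 RPKM, beside 0 reads of Kynu. The part of T-cell RNA in the Kynu reads of co-cultured keratinocytes was not tested.

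Over all members, 3 of the 50 pairs of groups passed an adjusted p of 0.05 in the edgeR fit of all 10 libraries. Each set Kynu in T cells against keratinocytes alone, where it had 0 reads. None was a pair of neighbours in the order of group means, the pairs planned for this fit. Kynu was the only member for which groups differed past the threshold of adjusted p of 0.05. In the edgeR fit of all 10 libraries, it was higher than in keratinocytes alone in activated T cells (adjusted p = 0.0143), in T cells in keratinocyte medium (adjusted p = 0.0185), and in co-cultured T cells (adjusted p = 0.0414). Against the limit of 3 reads per library, the means of these groups were at least 23.7-fold, 13.95-fold, and 3.94-fold higher. Of all 13394 genes tested, 13% were called higher in activated T cells than in keratinocytes alone, 12.8% in T cells in keratinocyte medium and 13.1% in co-cultured T cells. The first call held in 11 of 13 fits, the second in 10 and the third in 4. All 3 calls were lost without either library of keratinocytes alone (adjusted p of 0.0603 to 0.163), and the second also without library b of the T cells in keratinocyte medium (0.0668).

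Wars was the most abundant member in every library, with between 18.2 and 69.5 RPKM. The gene (ENSMUSG00000021266) occupies 108860030 to 108894174 on the minus strand of chromosome 12 and has 18 exons. It overlaps 3 annotated genes, Wdr25 and 5033424D13Rik on the other strand and Gm22079 on the same strand, and reads were counted with the default settings of the software, whose strand option the methods do not spell out. Keratinocytes alone held 26.4 and 24.7 RPKM in replicates 1 and 2, and co-cultured keratinocytes 69.5 and 28.8 RPKM. Both co-cultured libraries were above both others, but by 2.63 fold in replicate 1 and by 1.17 fold in replicate 2. Activated T cells held 48.7 and 27.4 RPKM, those in keratinocyte medium 31.9 and 21.9 RPKM, and co-cultured T cells 39.0 and 18.2 RPKM, so that the 3 T-cell groups overlapped. In co-cultured keratinocytes, the log2 ratio of replicate 2 to replicate 1 was -1.27 for Wars. The median of this ratio was -0.19 over 1609 genes with an exon length within 1.2 fold of that of Wars, and 10% of them lay below -1.21. The part of transcript length or RNA quality in this spread was not tested.

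Gch1 was found at similar levels in keratinocytes and activated T cells and was lowest in T cells kept in keratinocyte medium. It spans 47153895 to 47189413 on the minus strand of chromosome 14, has 6 exons (ENSMUSG00000037580), and overlaps 2 processed pseudogenes. Keratinocytes alone held 8.49 and 9.93 RPKM and co-cultured keratinocytes 8.13 and 5.40 RPKM, and both co-cultured libraries were below both others. Activated T cells held 7.20 and 8.68 RPKM. In keratinocyte medium the T cells held 2.12 and 3.28 RPKM, below all 8 other libraries but library a of the co-cultured T cells, which held 2.60 RPKM. Library b of the co-cultured T cells held 8.38 RPKM, within the range of the activated cells. The mean of T cells in keratinocyte medium, 2.70 ± 0.818 RPKM (SD, n = 2), was 2.94-fold lower than that of activated T cells, 7.94 ± 1.05 RPKM (SD, n = 2).

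Of the 5 members, Gch1 alone was matched to a promoter in the RefSeq table for GRCm38.p6. Its 250 bases before the start of transcription, chr14:47189414-47189663 on the minus strand, are shown because Gch1 was the 1 member whose group means differed by more than 2.5 fold at a level above 5 RPKM. Capitals mark the matches of the motifs searched on both strands.
Gch1: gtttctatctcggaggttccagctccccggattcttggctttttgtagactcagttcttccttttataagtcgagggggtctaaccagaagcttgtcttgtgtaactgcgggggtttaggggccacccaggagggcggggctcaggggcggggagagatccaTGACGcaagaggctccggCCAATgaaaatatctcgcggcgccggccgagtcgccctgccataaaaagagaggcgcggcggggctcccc
The 4 motifs searched were TTCNNNGAA, the core of sites for STAT dimers, GAAA followed after any 2 bases by GAAA, the core of interferon-stimulated response elements, CCAAT, and TGACG, a part of cAMP response elements. The last 2 were each found once and on the strand shown, CCAAT at 70 to 66 and TGACG at 88 to 84 bases before the start, and do not overlap. Among all 32851 promoters of the table, CCAAT was found in 33.8% and TGACG in 17.8% of windows of the same length. No match was found for TTCNNNGAA, which 7.02% of the windows hold, or for the pair of GAAA, which 2.98% hold. This says only that these letters are not in this window.

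Nos2 was low in all libraries and was found mainly in 1 library of co-cultured keratinocytes and in activated T cells. The gene (ENSMUSG00000020826) lies on the plus strand of chromosome 11 at 78920787 to 78960254 and has 29 exons. Keratinocytes alone held 0 reads in both replicates. Co-cultured keratinocytes held 41 reads in replicate 1 and 5 in replicate 2, equal to 0.628 and 0.0706 RPKM, of which 16 and 5 reads spanned a junction. Their mean, 0.349 ± 0.394 RPKM (SD, n = 2), was at least 8.98-fold higher than the limit of 3 reads per library, of which replicate 1 made up most. In activated T cells 26 and 24 reads were found, or 0.360 and 0.388 RPKM, more evenly than in co-cultured keratinocytes. T cells in keratinocyte medium held 4 and 0 reads and co-cultured T cells 6 and 0 reads in a and b, so that both groups lay below the activated cells in both libraries.

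**Figure D2:**
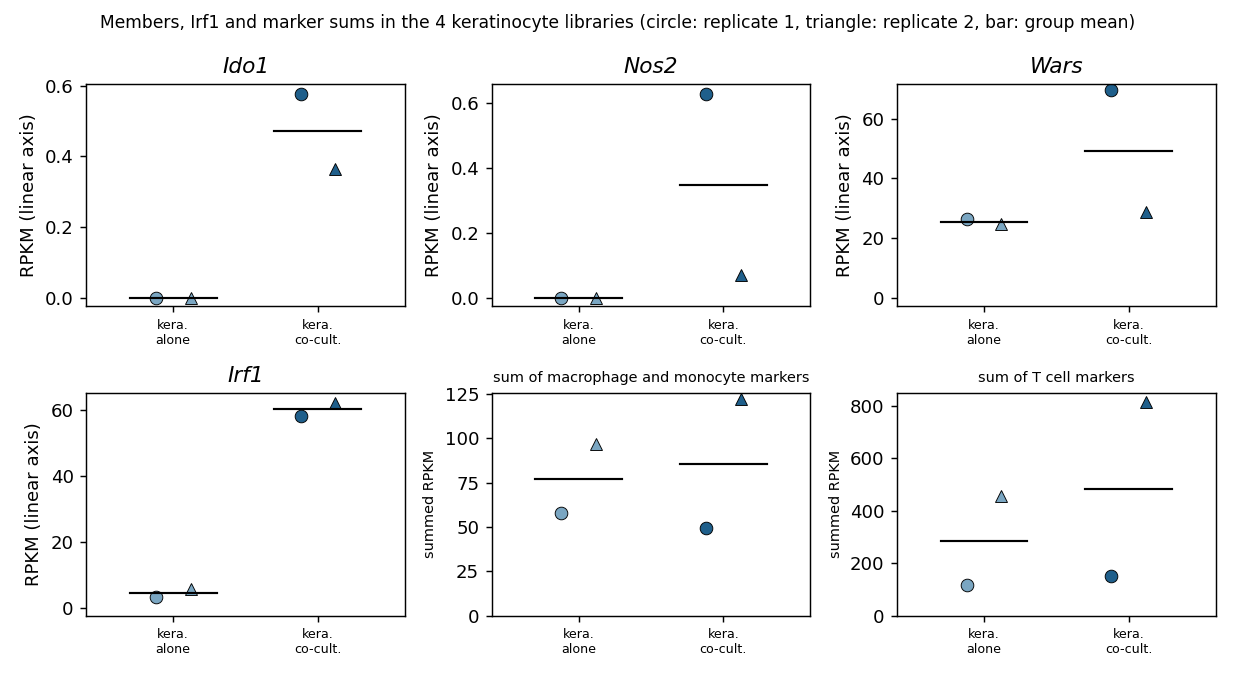
RPKM of Ido1, Nos2, Wars, and Irf1 and the summed RPKM of macrophage and T-cell markers (linear axes) in the 4 keratinocyte libraries, 1 point for each library with a bar at each group mean. Ido1, Nos2 and Wars were higher in replicate 1 of the co-cultured keratinocytes, and both marker sums in replicate 2 of either group. Irf1 was alike in both replicates of the co-cultured keratinocytes only.

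Since Ido1 and Nos2 are known from myeloid cells, the markers of these cells were set beside them. The 13 macrophage and monocyte markers summed to 58.1 and 96.5 RPKM in replicates 1 and 2 of keratinocytes alone and to 49.2 and 122 RPKM in the co-cultured ones, and all 13 had reads in each of these libraries. In the co-cultured libraries, Nos2 had 41 and 5 reads and Ido1 16 and 11 reads beside these sums. The 11 dendritic and Langerhans cell markers summed to between 0.417 and 0.790 RPKM in all 4 keratinocyte libraries, and Cd207, Cd209a, Clec9a, and Siglech were at 0 there. In T cells, the same markers summed to 40.0 and 30.9 RPKM in the activated cells, where Kynu and Nos2 were highest, and to between 6.07 and 9.46 RPKM in the 4 other libraries. Most of this sum came from Ccl22, at 20.9 and 21.0 RPKM in activated cells, and Batf3, at 17.4 and 7.19 RPKM. There, 8 and 7 of the 11 markers had reads, while Cd207, Cd209a, and Clec9a were at 0. As the sum rests mostly on Ccl22 and Batf3, it is not read as a measure of dendritic cells. The macrophage and monocyte markers summed to 27.1 and 138 RPKM in activated T cells, to 84.9 and 92.9 RPKM in keratinocyte medium and to 80.4 and 98.0 RPKM in co-culture. In each of these groups the library with the larger sum held more reads of Kynu but fewer of Nos2. For Nos2 these were 24 against 26 reads in activated cells, 0 against 4 in keratinocyte medium and 0 against 6 in co-culture. By RPKM, Nos2 in activated cells was slightly higher in the library with the larger sum, 0.388 against 0.360. The part of such cells in the levels of Ido1, Kynu and Nos2 was not tested, in keratinocytes or in T cells. In these bulk samples, fewer cells of a type and less RNA per cell cannot be told apart.

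The first comparison set co-cultured keratinocytes against keratinocytes alone, so that the presence of CD8+ T cells and the mixed medium go together. Ido1, Wars, and Gch1 were tested, and Kynu and Nos2 had too few reads for edgeR's filter. The log2 fold change was 6.90 ± 1.89 (SE) for Ido1 (edgeR, adjusted p = 0.658), 0.99 ± 0.45 for Wars (adjusted p = 0.658), and -0.39 ± 0.34 for Gch1 (adjusted p = 0.721). The value for Ido1 depends on how 0 reads are treated and is no bound. None of the 3 tested members was called, as 0% of all 12515 genes tested were called in either direction. At an unadjusted p under 0.05, Ido1 was the 1 member of 3 found, also by DESeq2 and limma, beside 7.2% of all genes by edgeR. Over 11 fits its adjusted p ranged from 0.192 to 1.00. Both libraries were higher than both others for 19.8% of the genes tested, and lower for 24.3%, so that the 2 tested members above (Ido1 and Wars) and the 1 below (Gch1) are not set apart by this count. Among the alternatives, 5 fits gave a value for Nos2, with adjusted p of 0.512 to 1.00, and 2 for Kynu, with 0.717 to 0.755. A rule on RPKM values was set here as a mean of at least 5 RPKM in either group and 2.5 fold between the means. The study also names these limits. Ido1, Kynu and Nos2 lay below 5 RPKM in every group and could not pass in any comparison. Neither Wars nor Gch1 changed by this rule, beside 7.16% of the 7530 genes that reach 5 RPKM. Wars came nearest, with 1.92 fold.

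The second comparison followed activated T cells into keratinocyte medium without keratinocytes. Gch1 and Nos2 were lower in both libraries, with log2 fold changes of -1.40 ± 0.63 (SE; edgeR, adjusted p = 0.218) and -3.48 ± 1.95 (adjusted p = 0.316). The values were -0.60 ± 0.98 for Kynu (adjusted p = 0.771) and -0.35 ± 0.41 for Wars (adjusted p = 0.657), whose groups overlapped. Of the 4 members tested, 0 were called, beside 2.32% of 11863 genes called higher and 4.22% called lower, and 0 had an unadjusted p under 0.05 by edgeR or DESeq2, against 2, Gch1 and Nos2, by limma. Both libraries were lower than both others for 32.5% of all genes tested. Of the 6841 genes that reach 5 RPKM in either group, 15.5% passed the RPKM rule as lower. Of the members, only Wars and Gch1 reach this level, and Gch1 passed the rule. It no longer did without library a of the T cells in keratinocyte medium.

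The third comparison set co-cultured against activated T cells. Kynu was lower by 6.01 fold between the RPKM means, 0.138 ± 0.0979 against 0.829 ± 0.432 RPKM (SD, n = 2), with a log2 fold change of -2.36 ± 1.05 (SE; edgeR, adjusted p = 0.183). With 1 library left out, this ranged from -3.48 without co-cultured library b to -1.62 without replicate 2 of the activated cells, and it was -0.67 by limma on log2(RPKM + 1). Nos2 gave -2.84 ± 1.88 (adjusted p = 0.365), and both genes were lower in both libraries, as were 33.9% of the genes tested. Gch1, at -0.29 ± 0.62 (adjusted p = 0.805), and Wars, at -0.24 ± 0.41 (adjusted p = 0.759), overlapped between the groups. Again 0 of 4 members were called, beside 4.59% of all genes called higher and 5.72% called lower. At an unadjusted p under 0.05 there were 0 by edgeR, 1, Kynu, by DESeq2, and 2, Kynu and Nos2, by limma. By the RPKM rule neither Wars nor Gch1, the only members that reach 5 RPKM, changed, beside 25.8% of all genes that reach it. This comparison and the one before share the activated T cells as controls.

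The fourth comparison set co-cultured T cells against T cells kept in keratinocyte medium without keratinocytes. Kynu was lower in both co-cultured libraries, with 0.138 ± 0.0979 against 0.488 ± 0.288 RPKM (SD, n = 2) and a log2 fold change of -1.76 ± 1.04 (SE; edgeR, adjusted p = 1). Both libraries were lower than both others for 13.1% of the genes tested. The log2 fold change was 1.10 ± 0.63 for Gch1, 0.64 ± 1.94 for Nos2, and 0.12 ± 0.41 for Wars, each with an adjusted p of 1, and their groups overlapped. None of the 4 members tested was called or had an unadjusted p under 0.05 by edgeR or DESeq2, and 0.261% of all genes were called higher and 0% lower. By the RPKM rule neither Wars nor Gch1, the only members that reach 5 RPKM, changed, beside 2.03% of all genes that reach it. Gch1 passed the rule at 2 fold in place of 2.5 fold.

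**Figure D3:**
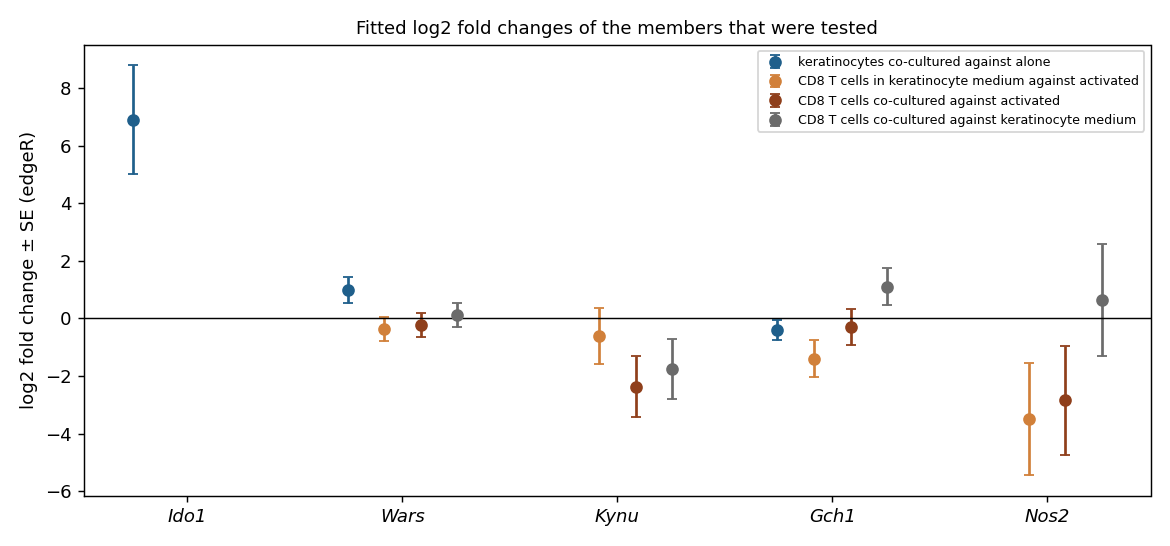
Log2 fold change with its SE (y axis) of each member (x axis) in the 4 comparisons, for the members that passed edgeR's filter. None of these values passed an adjusted p of 0.05, and the SE of Nos2 and Ido1 exceeded 1.8 on the log2 scale.

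Whether co-culture acted differently on the 2 cell types was tested in a fit of 8 libraries. The value is the change in keratinocytes, in which T cells and mixed medium go together, minus that of T cells against keratinocyte medium. Kynu had 13 reads in co-cultured keratinocytes and 0 in keratinocytes alone, and was lower in co-cultured T cells. The difference was 7.55 ± 2.63 on the log2 scale (SE; edgeR, adjusted p = 0.588). Kynu had not passed the filter in the keratinocyte fit and passed it here with the T-cell libraries added. Its value depends on how 0 reads are treated and is no bound, and limma on log2(RPKM + 1) gave 0.488. The difference was 0.84 ± 0.63 for Wars (edgeR, adjusted p = 0.910) and -1.51 ± 0.87 for Gch1 (adjusted p = 0.857). No SE could be given for Ido1, as all T-cell libraries of this fit held 0 reads. Of 4 members tested 0 were called, beside 0.576% of all 13202 genes, and 1, Kynu, had an unadjusted p under 0.05, beside 7.06% of all genes. DESeq2 also found Kynu, whereas limma found Ido1 in its place. Among the other genes examined, Irf1 (3.73 ± 0.54, adjusted p = 0.0364), the guanylate-binding protein gene Gbp3 (6.50 ± 0.88, adjusted p = 0.0290), and the chemokine gene Cxcl9 (10.28 ± 0.93, adjusted p = 0.00730) did pass. Of the cell type markers, Krt6a (-6.44 ± 0.77, edgeR adjusted p = 0.0196), S100a8 (-9.31 ± 1.43, adjusted p = 0.0470) and S100a9 (-7.78 ± 0.92, adjusted p = 0.0187) passed with the opposite sign. Cxcl9 was called in 16 of 16 fits, Irf1 in 9 and Gbp3 in 10 of 17. The last 2 were lost without any of the 4 T-cell libraries and without either library of keratinocytes alone, and Irf1 also without replicate 2 of the co-cultured keratinocytes.

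The order of the group means differed from member to member. Ido1 ranked co-cultured keratinocytes before activated T cells, with the other 3 groups at 0. Wars ranked co-cultured keratinocytes first, at 49.1 ± 28.8 RPKM (SD, n = 2), and keratinocytes alone last, at 25.6 ± 1.24 RPKM. Gch1 ranked keratinocytes alone first, at 9.21 ± 1.02 RPKM, and T cells in keratinocyte medium last. Nos2 ranked activated T cells, at 0.374 ± 0.0197 RPKM, just before co-cultured keratinocytes, and Kynu ranked the 3 T-cell groups before both keratinocyte groups. Of 20 pairs of groups that were neighbours in these orders, 0 passed in the edgeR fit of 10 libraries (lowest adjusted p = 0.223), and 1 had an unadjusted p under 0.05, Kynu between both keratinocyte groups.

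Of the 16 genes of the kynurenine pathway 11 were tested in T cells, and 3 of these, none of them a member, were called against activated T cells. Haao, which makes quinolinate from the product of kynureninase, rose from 0.974 and 0.398 RPKM in activated T cells to 14.8 and 12.2 RPKM in keratinocyte medium and to 21.3 and 18.7 RPKM in co-culture. The log2 fold changes were 4.43 ± 0.53 (SE; edgeR, adjusted p = 0.0115) and 5.04 ± 0.54 (adjusted p = 0.00525). Kyat3, a kynurenine aminotransferase, fell from 4.84 ± 1.73 RPKM to 0.833 ± 0.223 RPKM and to 0.885 ± 0.339 RPKM (SD, n = 2; adjusted p = 0.0352 and 0.031). Slc7a5, which carries tryptophan and other large amino acids into cells, fell from 113 and 43.7 RPKM to between 6.30 and 15.6 RPKM in the other 4 libraries (adjusted p = 0.0207 and 0.0268). Haao was called in 14 of 15 fits for keratinocyte medium and 15 of 15 for co-culture, whereas Kyat3 and Slc7a5 were not called in either comparison without replicate 1 of the activated T cells, nor in keratinocyte medium without either of its own libraries. In co-culture, Kyat3 was also lost without library b and Slc7a5 without library a and with unique reads. The 11 genes thus held 1 higher and 2 lower calls in either comparison with activated T cells, beside 2.32% of all genes higher and 4.22% lower in keratinocyte medium and 4.59% and 5.72% in co-culture. Their medians were -0.15 in keratinocyte medium and -0.32 in co-culture against -0.01 over all genes tested in both. In keratinocytes 9 of the 16 genes were tested and 0 called, with a median of 0.16 against 0.02 over all genes tested. Ido2 and Tdo2, which act at the same step as Ido1, had at most 0.878 and 0.135 RPKM in any library.

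The aryl hydrocarbon receptor, which kynurenine can bind, was looked at through 8 genes. In keratinocytes 7 were tested and 0 called, with a median of -0.39. For Ahr, the receptor, keratinocytes alone gave 11.4 and 6.18 RPKM and co-cultured ones 3.81 and 2.40 RPKM, both below both others (log2 fold change -1.43 ± 0.42, edgeR adjusted p = 0.658). Of its targets, Tiparp stood at 65.9 and 53.5 against 57.3 and 38.4 RPKM, and Cyp1a1 was at most 0.586 RPKM. In T cells 8 genes were tested and 0 called in any comparison.

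Among the cytosolic aminoacyl-tRNA synthetases, the family of Wars, at least 10 genes other than Wars fell in both T-cell groups against activated T cells. Of 20 genes tested, 10 were lower in keratinocyte medium and 12 in co-culture than in activated T cells, and 0 were higher, beside 4.22% and 5.72% of all genes called lower. Nars, for asparagine, fell from 139 ± 37.0 to 34.2 ± 2.52 and 30.1 ± 0.261 RPKM (SD, n = 2; edgeR, adjusted p = 0.0191 and 0.00981). Iars, for isoleucine, fell from 47.1 ± 28.8 to 8.13 ± 1.59 and 5.55 ± 2.44 RPKM (adjusted p = 0.0303 and 0.0129), and Hars, for histidine, from 90.6 ± 30.0 to 23.3 ± 1.17 and 16.2 ± 5.34 RPKM (adjusted p = 0.027 and 0.00984). Wars was the third from the top of the 20 in keratinocyte medium and the second in co-culture, with -0.35 and -0.24, whereas the medians of the 19 others were -1.80 and -1.83. The synthetase for glutamine, Qars, was the highest in both, at 0.95 and 0.92. Whether Wars differed from the others was not tested. Without replicate 1 of the activated T cells, 0 of the 20 genes were called in either comparison. The same held for keratinocyte medium without either of its own libraries, while 3 were called in co-culture without its library b. In keratinocytes 0 of the 20 genes were called, and Wars had the highest log2 fold change, before Kars at 0.98 (adjusted p = 0.658), with a median of 0.07 over the 19 others. Of the 17 mitochondrial synthetases, 0 were called in keratinocyte medium, and Fars2 alone was called in co-culture, as higher (1.37 ± 0.36, adjusted p = 0.0492), in 5 of 16 fits and without this call when any 1 of the 6 T-cell libraries was left out.

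**Figure D4:**
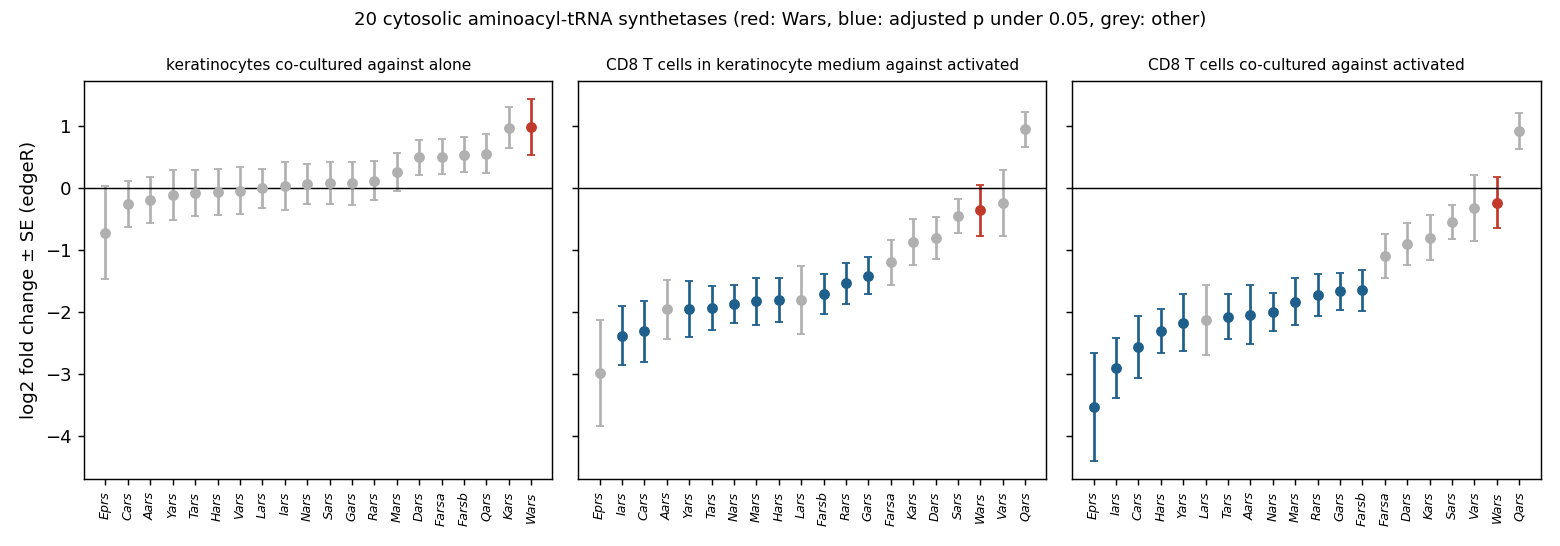
Log2 fold change with its SE (y axis) of the 20 cytosolic aminoacyl-tRNA synthetases (x axis, ordered by value in each panel) in keratinocytes and in both T-cell groups against activated T cells. Wars (red) lay at the upper end in each panel, while 10 and 12 of the other genes (blue) were called lower in T cells and none in keratinocytes.

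Of the 12 genes around Gch1 in the synthesis and recycling of tetrahydrobiopterin, 6 were tested in T cells. Pts, which acts next after Gch1, rose from 12.7 ± 3.27 RPKM in activated T cells to 49.7 ± 7.47 RPKM in keratinocyte medium and 37.9 ± 4.84 RPKM in co-culture (SD, n = 2; edgeR, adjusted p = 0.0203 and 0.0209). Spr, the last step of the synthesis, was at 21.6 and 20.7 RPKM in activated T cells and fell to 7.41 and 7.54 RPKM in co-culture (adjusted p = 0.0392). Pts was not called in either comparison without replicate 1 or replicate 2 of the activated T cells, nor in keratinocyte medium without library a or b or in co-culture without b. Spr was called in 9 of 16 fits and was lost when any 1 of the 6 T-cell libraries was left out. Gch1 itself was not called, with -1.40 in keratinocyte medium and -0.29 in co-culture. In keratinocytes 9 of the 12 genes were tested and 0 called. For Gchfr, a regulator of the GCH1 protein, keratinocytes alone gave 6.78 and 4.28 RPKM and co-cultured ones 1.33 and 1.13 RPKM (log2 fold change -2.09 ± 0.73, adjusted p = 0.658).

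Around Nos2, 10 of 15 genes for nitric oxide and arginine were tested in T cells, of which 2 were called lower in keratinocyte medium and 3 in co-culture, and 0 higher, beside 4.22% and 5.72% of all genes called lower and 2.32% and 4.59% called higher. Odc1, which turns ornithine into polyamines, fell from 440 and 453 RPKM to between 43.7 and 70.2 RPKM in the other 4 libraries (edgeR, adjusted p = 0.0143 and 0.00755). The arginine transporter gene Slc7a1 fell from 23.7 and 9.51 RPKM to between 3.23 and 4.70 RPKM (adjusted p = 0.0451 and 0.0319). Slc7a3, a second arginine transporter, is listed at 0 in both co-cultured T-cell libraries, against 1.86 and 2.48 RPKM in activated T cells (adjusted p = 0.0266). Odc1 was called in 16 of 16 fits in co-culture and in 13 in keratinocyte medium, where it was lost without replicate 1 of the activated T cells or either library of the medium. Slc7a1 was lost without the same libraries in keratinocyte medium, where it was also not called with library size in place of TMM or by limma, and in co-culture without replicate 1 of the activated T cells or either co-cultured library. Slc7a3 was lost without either activated library or co-cultured library b. Of the other nitric oxide synthases, Nos1 and Nos3 had at most 0.0556 and 0.640 RPKM. Arg1, which competes for arginine, was far above Nos2 in keratinocytes, with 974 and 317 RPKM in those alone and 658 and 377 RPKM in the co-cultured ones. It was also found at 9.34 and 2.01 RPKM in co-cultured T cells, the group with the larger sum of keratinocyte markers. In keratinocytes 10 of these genes were tested and 0 called. Ass1, which renews arginine from citrulline, gave 61.6 and 86.0 RPKM without T cells and 107 and 163 RPKM with them (adjusted p = 0.658), without overlap.

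**Figure D5:**
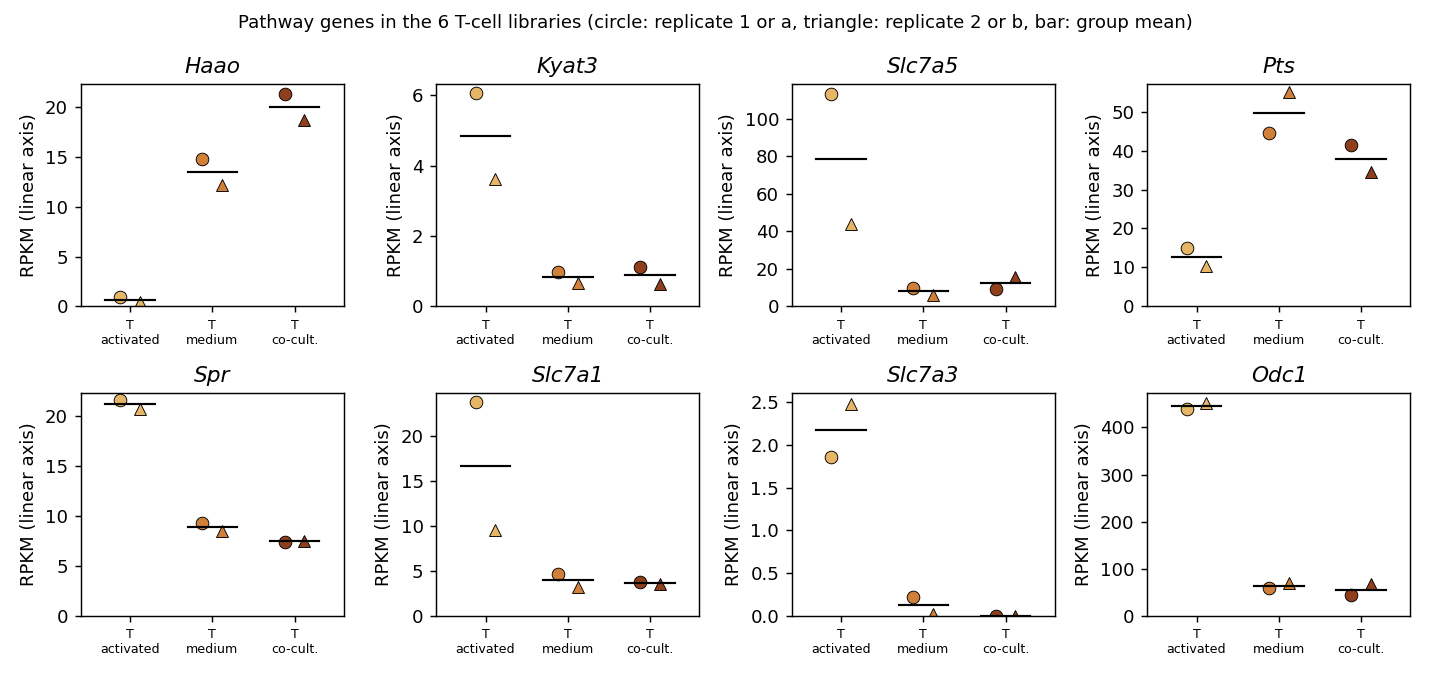
RPKM (linear axes) of 8 pathway genes called in at least 1 comparison in the 6 T-cell libraries, 1 point for each library with a bar at each group mean. Haao and Pts were higher and the other 6 genes lower in both groups than in activated T cells.

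The signal and its receptor were read from 17 input genes. Ifng, the gene of IFN-γ itself, stood at 613 and 589 RPKM in activated T cells and fell to 5.95 and 7.20 RPKM in keratinocyte medium (log2 fold change -6.36 ± 0.49, edgeR adjusted p = 0.00345) and to 3.26 and 6.20 RPKM in co-culture (-6.77 ± 0.50, adjusted p = 0.00162), and both calls held in 16 of 16 fits. Ifngr1, the ligand-binding chain of the receptor, was found at 24.9 and 41.5 RPKM in keratinocytes alone, against 24.0 and 55.3 RPKM after co-culture, and Ifngr2, the second chain, at 10.7 and 9.31 against 10.3 and 7.14 RPKM. Irf1 stood at 3.19 and 5.72 RPKM in keratinocytes alone (3.83 ± 0.45, adjusted p = 0.434), without overlap with the co-cultured cells. Against activated T cells, 1 of the 17 input genes was called higher in either group, Tnfrsf1a, and 2 lower, Ifng and Irf8. Of all genes, 2.32% were called higher and 4.22% lower in keratinocyte medium, and 4.59% and 5.72% in co-culture. In keratinocytes 0 of the 16 tested were called, as were 0% of all genes.

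Other known targets of IFN-γ were set beside the members in keratinocytes. Of 19 such targets outside the 5 members, 18 were tested in keratinocytes, of which 17 were higher at an unadjusted p under 0.05, beside 3.08% of all genes, and 0 after adjustment. By the RPKM rule, 15 of the 15 that reach 5 RPKM were higher. Their median log2 fold change was 3.16, ranging from 1.36 to 10.97, against 0.02 over all genes tested. This list was drawn up with earlier results of these data known. For Cxcl9, 0.0365 and 0.0813 RPKM were found without T cells and 175 and 62.5 RPKM with them. Gbp2, a guanylate-binding protein gene, stood at 2.74 and 6.47 against 579 and 203 RPKM. Wars (0.99) and Gch1 (-0.39) lay below the lowest of these 18 values, and Ido1, with 6.90, among the higher ones but at less than 1 RPKM. In T cells, 19 of these targets were tested, 3 were called higher in keratinocyte medium, Irgm2, Psmb9, and Tap1, and 5 in co-culture, with Gbp6 and Igtp in addition, and 0 lower, beside 2.32% and 4.59% of all genes called higher and 4.22% and 5.72% called lower. No member of the 5 was among the genes called higher in T cells.

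The genes whose pattern was most like that of a member were sought by Pearson's r of log2(RPKM + 0.1) over the 10 libraries, among genes with a mean of at least 1 RPKM. As the libraries are of 2 cell types and share their groups, r is a description. For Ido1 these were Sectm1b (0.96), Mnda (0.95), and Serping1 (0.94), and for Wars Hmga1 (0.90), Tox4 (0.89), and Ttk (0.88). For Kynu they were Frg1 and Pdcd10 (both 0.96) and Lsm6 (0.96), for Gch1 Rabggta (0.91), 6030458C11Rik (0.91), and Fam213a (0.90), and for Nos2 Akt2 (0.89), Kars (0.89), and Txlng (0.87). No gene was thus found among the nearest of more than 1 member.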

How the data were processed

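Per the labels and the methods of the study, poly(A) RNA libraries were sequenced as single-end reads and mapped to GRCm38 with the CLC Genomics Workbench. The authors deposited for each library counts of exon reads, unique exon reads, junction and intron reads, without normalization, and RPKM values scaled to exon length and mapped reads. Reads were counted with the default settings of this software, and the annotation release is not given in the sources used here. Gene positions equal those of GENCODE vM21.

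The tests ran on exon read counts in R 4.3.3, by edgeR 4.0.16 with its filterByExpr filter, TMM scaling and quasi-likelihood F test, and used Benjamini-Hochberg adjustment over all genes tested. The 4 keratinocyte and 6 T-cell libraries were fitted apart, the difference between cell types over 8 libraries and the order of levels over 10. SE is the log2 fold change divided by the square root of F. An exact permutation test of 2 against 2 libraries cannot go below p = 0.333 and was not used. Scripts were tested on simulated data. As alternatives, the values were recomputed by DESeq2 1.42.0 and by limma 3.58.1 (log2 RPKM after adding 1 or 0.1), with other filters, scaling, unique reads, other libraries in the fit, the replicate number as a block, and each library left out. Runs of the synthetase counts and of Kynu against keratinocytes alone were added after seeing the data. Named genes were the members, list genes that passed the test or the RPKM rule (up to 10 a list), the IFN-γ ligand, receptor and Irf1, and the 3 genes most like each member. Others (Tiparp, Cyp1a1, Ass1, Arg1, Kars, Qars, Ido2, Tdo2, Nos1, Nos3 and single cell type markers) were named after their values were seen. The members and lists were chosen with earlier results of these data known. The values of 2 genes of the lists and the secretion and ChIP assays are not reported here. Tables and plots were made in Python 3.11.15 with pandas 2.3.3 and matplotlib 3.10.9.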

Additional observations from a re-analysis of the deposited data

Results flagged for a closer look

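Kynu was marked for a closer look because its values differed between co-cultured and control libraries with opposite signs in the 2 cell types. Co-cultured keratinocytes held 1 and 12 reads against 0 and 0, of which the single read of replicate 1 was not uniquely mapped and lies under the limit of 3 reads. Co-cultured T cells held 5 and 14 reads against 21 and 57 in keratinocyte medium (edgeR, adjusted p = 1). The difference between these changes was 7.55 ± 2.63 on the log2 scale (SE; edgeR interaction, adjusted p = 0.588) and was under the threshold only before adjustment. With no library left out, the adjusted p ranged from 0.243 by DESeq2 to 0.700 by edgeR on unique exon reads. Over 16 fits of this difference, the value ranged from 0.488 to 8.72 and was above 0 in each. This sign was given by the counts and adds no support. Keratinocytes alone held 0 reads, and both co-cultured T-cell libraries held fewer than both in keratinocyte medium. The size of the value depends on how the 0 reads of keratinocytes alone are treated. The T-cell markers in the keratinocyte libraries are given with the levels of Kynu. Groups of 2 libraries are too small to mark a single library as standing apart.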

How the results depend on the processing

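With 2 libraries a group, the tests of the members have wide errors, and a p that misses the threshold does not show that groups were alike. Ido1, Nos2 and Kynu rest on few reads. In the 5 comparisons, 0 members were called in each of the 74 alternatives. Of 257 alternatives for log2 fold changes of members in these comparisons, 247 kept direction and side of the threshold. The 10 that changed sign were all fits with 1 library left out. For keratinocyte medium against activated T cells, these fits ranged from -0.669 to 0.072 for Wars and from -1.48 to 0.14 for Kynu. For co-cultured against activated T cells they ranged from -0.761 to 0.183 for Wars, which also reached 0.145, and from -1.52 to 0.363 for Gch1. For co-cultured T cells against keratinocyte medium they ranged from -0.406 to 0.5 for Wars, with another value of -0.071, from -4.07 to 4.69 for Nos2, with another of -0.321, and from -0.12 to 1.76 for Gch1. By the RPKM rule, the members that changed ranged from 0 to 1 when 1 library was left out, in each of the 4 comparisons: Wars passed in keratinocytes without replicate 2 of the co-cultured ones, and all other such changes concerned Gch1. At 2 fold, 1 member, Gch1, passed between co-culture and keratinocyte medium.

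The number of all genes called moved more. In keratinocytes it was 0 by edgeR, 186 by DESeq2, 11 without a filter, 4 with all 10 libraries in 1 fit, and 0 to 1164 with 1 library left out, the highest without replicate 1 of the co-cultured cells. For keratinocyte medium it was 776, 1947 by DESeq2, 1945 without a filter, and 24 to 1067 with 1 library left out. For co-cultured against activated T cells it was 1222, 2368 by DESeq2, 2425 without a filter, and 266 to 1093 with 1 library left out. For co-culture against keratinocyte medium it was 31, 87 by DESeq2, 141 without a filter, 0 with at least 10 reads in every library, 99 and 107 by limma with 1 and 0.1 added, 83 with all 10 libraries, and 16 to 52 with 1 left out. For the difference between cell types it was 76, 353 by DESeq2, 205 without a filter, 0 with at least 10 reads in every library, and 21 to 105 with 1 left out. The cause was not tested.

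The replicate numbers are shared by both keratinocyte groups, but nothing says that they mark a shared animal or day. Deviations of same-numbered libraries correlated with r = 0.56 over 12515 genes, in 2 pairs. With a replicate block, 2 genes were called in keratinocytes in place of 0, and 0 members (Ido1 6.92, adjusted p = 0.192; Wars 0.881, adjusted p = 0.221; Gch1 -0.397, adjusted p = 0.486). The T-cell groups that were compared do not share numbers.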
